A study of Homo sapiens with 32 samples.

Results

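SCD and ELOVL5 are enzymes of fatty acid synthesis, and their messenger RNA was followed here in human breast tumors grown in mice during treatment with tamoxifen, an anti-estrogen. SCD, stearoyl-CoA desaturase, places a double bond in saturated fatty acyl chains and makes oleic and palmitoleic acid. ELOVL5 is a fatty acid elongase that lengthens polyunsaturated acyl chains in the endoplasmic reticulum. Both enzymes supply the unsaturated chains of membrane phospholipids and stored triglycerides, and the genes of lipid synthesis are in general under the control of sterol regulatory element-binding proteins. The members were all probes that carried the symbol SCD or ELOVL5 in the study's list of changed genes, that is probe 123474_A for SCD and probes 138518_A and 271284_A for ELOVL5, or 3 of the 9912 probes on the array. That list, of 333 probes and 253 genes, was chosen by the study for change on these arrays, so the ratios of the members to the control pool are given below as a description and are not tested.

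The tumors were xenografts in female nu/nu mice, which lack a thymus, of the human breast cancer line ZR-75-1, in which the estrogen receptor is active. Every animal had a slow-release pellet of E2 (estradiol), and the treated animals also had 2.5 mg of tamoxifen released over 60 days, so the treated tumors were under E2 and tamoxifen together. Days 1, 4 and 7 of tamoxifen had 4 tumors each, from 2 mice at day 1 and from 3 mice at days 4 and 7, and days 2 and 14 had 2 tumors each, from 2 mice. Each tumor was hybridized against 1 control pool, made of E2-only tumors taken at days 0, 1, 2 and 4. The pool held no tumor of day 7 or day 14, so at those days tamoxifen and the age of the tumor cannot be told apart. No control tumor was hybridized singly, so the spread of the controls is unknown. RNA of mouse stroma is part of each tumor sample, and cDNA probes can bind related transcripts. The part of either in the values was not tested.

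All values are log2 ratios of tumor over control pool after normalization, averaged over the forward and the dye-swap array of a tumor. A forward array and its dye swap carry the same pair of RNA samples with the labels exchanged. The sign is likely, not certain, because the scanner files do not name the dyes: it is that of the authors' value table, while the channel numbers of the sample labels would turn every sign. With the sign used, the estrogen-induced genes TFF1 and TFF3 were called lower than the pool on all 5 days, with day means of -1.28, -1.42, -1.11, -1.12 and -2.11 for TFF1 and of -0.77, -1.31, -1.10, -1.13 and -1.94 for TFF3, and with the sign turned they would lie above the pool on every day of anti-estrogen treatment. In the 31 arrays used, the turned ratios correlated with the authors' table across probes with an r between 0.216 and 0.994. One array, labelled as the dye swap of day 4 replicate 4, was left out by the rule that chose the members, so tumor 915L had a forward array only. Its ratio of channels ran with the forward array of tumor 920R (r = 0.880 across 9912 probes), with an SCD ratio of 4.49 there against 4.63 in 920R. The signal of the member probes was 2.75 times the local background or more in the tumor channel and 3.01 times or more in the pool channel.

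Because both genes are described by the level of their transcript, the start of each gene is shown first, as RefSeq gives it in build GRCh38.p14, from 250 bases before the start of transcription to 50 bases after it. The SCD window is chr10:100346983-100347282 on the plus strand and the ELOVL5 window is chr6:53348901-53349200 on the minus strand. Both members matched an entry. Capitals mark CCAAT, or ATTGG where the match lies on the opposite strand.
SCD promoter: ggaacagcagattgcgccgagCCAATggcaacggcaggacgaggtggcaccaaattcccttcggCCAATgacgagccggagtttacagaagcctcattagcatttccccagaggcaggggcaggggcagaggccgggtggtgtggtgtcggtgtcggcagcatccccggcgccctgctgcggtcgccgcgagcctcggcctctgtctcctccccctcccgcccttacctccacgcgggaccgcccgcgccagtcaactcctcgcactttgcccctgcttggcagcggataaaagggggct
ELOVL5 promoter: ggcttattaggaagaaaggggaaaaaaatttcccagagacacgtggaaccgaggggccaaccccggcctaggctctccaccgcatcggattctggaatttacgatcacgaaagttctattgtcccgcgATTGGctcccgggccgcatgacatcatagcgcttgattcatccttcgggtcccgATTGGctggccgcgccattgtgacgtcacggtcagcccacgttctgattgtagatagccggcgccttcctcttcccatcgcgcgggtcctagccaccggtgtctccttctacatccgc

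The promoters of SCD and ELOVL5 each held 2 CCAAT boxes, at -229 and -186 in SCD on the strand shown and at -122 and -68 in ELOVL5 on the other strand, counted to the first letter shown. The motif is common, with at least 1 match on either strand in 34.6% of the 35116 RefSeq promoters of the same length and 2 or more in 10.8%. A full estrogen response element, spelled GGTCANNNTGACC, was found in neither window and in 0.057% of all promoters. Its single arm, GGTCA, had 1 match in ELOVL5, at -39, and none in SCD, against 37.4% of all promoters with a match. The ELOVL5 window also held TGACGTCA, the cyclic AMP response element, at -48 (1.85% of promoters), which ends 1 letter before that arm, and CACGTG, an E-box, at -211 (7.26%). The SCD window held GGGCGG, the GC box, on the other strand at -33 and -11 (45.0% of promoters). The sterol regulatory element spelling TCACNCCAC (1.13% of promoters) had no match in either window. These are matches of letters, and no binding was measured in these samples.

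ELOVL5 transcript lay below the control pool in all 16 tumors and at about the same depth on every day. The mean of its 2 probes was lower than the pool by 1.44-fold on day 1 and 1.58-fold on day 2, by 1.33-fold and 1.37-fold on days 4 and 7, and by 1.54-fold on day 14. SCD transcript did not hold to one side of the pool: the day means were above it at days 1 and 4, close to it at day 2 and below it at days 7 and 14, and only at day 14 were all arrays on the same side. At day 14 SCD was 4.11-fold lower in the tamoxifen-treated tumors than in the pool, which held no control tumor of that day.

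**Figure D1:**
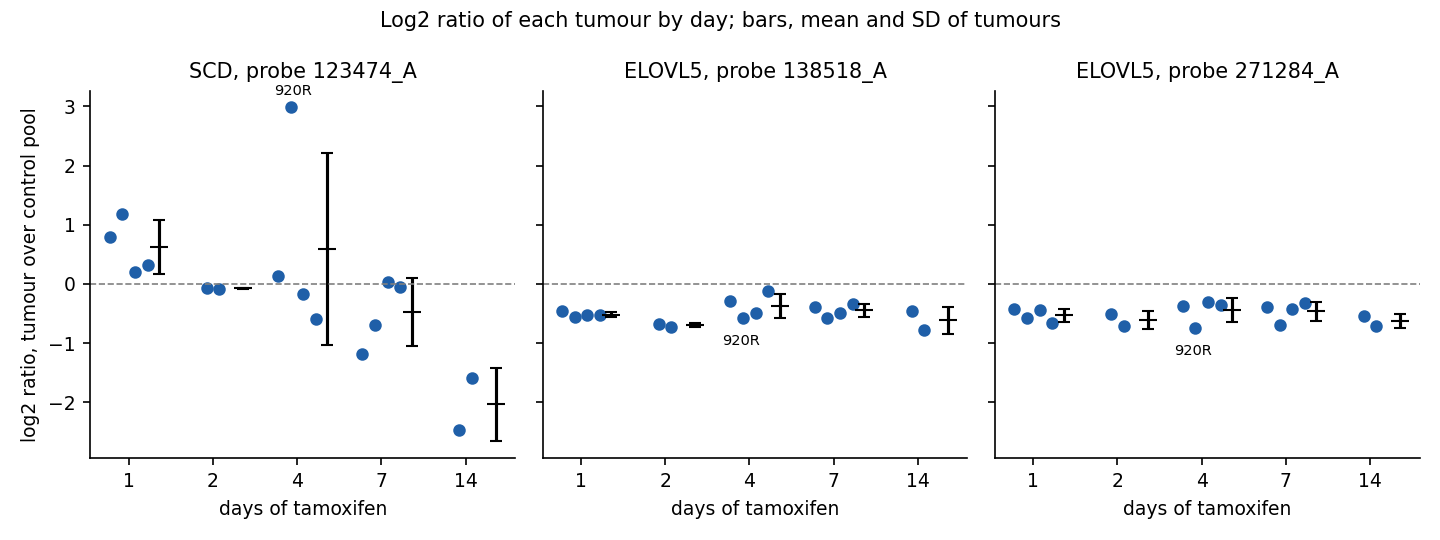
Log2 ratio of tumor over control pool (y axis) by days of tamoxifen (x axis) for the SCD probe and both ELOVL5 probes. Points are tumors, bars show mean and SD per day, and the dashed line marks equal level in tumor and pool. ELOVL5 lies in a band between -0.78 and -0.12 on both probes, while SCD runs from 2.99 in tumor 920R at day 4 to -2.48 at day 14.

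At day 1, SCD had log2 ratios of 0.79 and 1.18 in the tumors of mouse 933 and of 0.19 and 0.31 in the tumors of mouse 984. All 4 were above the pool, with a mean of 0.62 ± 0.46 (SD, n = 4), and both tumors of mouse 933 were above both tumors of mouse 984. That order of the mice was seen on forward arrays alone, since on dye swaps 933L was the lowest of the 4, at -0.52. At day 2 the ratios were -0.07 in 932L and -0.08 in 986, with a mean of -0.08 ± 0.01 (SD, n = 2). These tumors were next to the pool and next to each other, but each value is the mean of 2 arrays that stood apart, as given below.

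At day 4, SCD ratios were 0.14 in 920L, 2.99 in 920R, -0.17 in 915L and -0.59 in 924L. Tumors 920L and 920R came from the left and right flank of a single mouse and were the farthest apart of the 4 pairs of tumors that shared a mouse. The mean of day 4 was 0.59 ± 1.62 (SD, n = 4), and without 920R it was -0.21 ± 0.36 (SD, n = 3), so its sign rests on that tumor. On the forward array of 920R the pool signal of the SCD spot was 7.18 on the log2 scale, the lowest of the 31 arrays, at 3.01 times background, and the tumor signal was 11.81. On its dye swap the pool signal was 10.27 and the tumor signal 11.61, with a ratio of 1.34. The ratio of 920R was therefore above the pool on both arrays, by amounts that differed by 3.29 on the log2 scale.

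At day 7, SCD ratios were -1.19 in 907L, -0.69 in 908L, 0.03 in 946L and -0.05 in 946R. The tumors of mouse 946 were level with the pool and the tumors of the other mice below it, with a mean of -0.47 ± 0.57 (SD, n = 4). At day 14 the ratios were -2.48 in 919L and -1.60 in 938L, with a mean of -2.04 ± 0.62 (SD, n = 2). No tumor of an earlier day was as low as either tumor of day 14.

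ELOVL5 ratios, as the mean of its 2 probes, were -0.45, -0.57, -0.49 and -0.60 in the day 1 tumors (933L, 933R, 984L and 984R), with a mean of -0.53 ± 0.07 (SD, n = 4). At day 2 they were -0.59 in 932L and -0.72 in 986 (-0.66 ± 0.09, SD, n = 2). At day 4 they were -0.33 in 920L, -0.67 in 920R, -0.39 in 915L and -0.23 in 924L (-0.41 ± 0.19, SD, n = 4). Tumor 920R, with the highest SCD ratio of the series, had the lowest ELOVL5 ratio of its day. At day 7 they were -0.39 in 907L, -0.63 in 908L, -0.46 in 946L and -0.33 in 946R (-0.45 ± 0.13, SD, n = 4), and at day 14 they were -0.50 in 919L and -0.74 in 938L (-0.62 ± 0.17, SD, n = 2). Tumors of every day overlapped with those of the day next to it in level.

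In order of their means, the ELOVL5 days ran from day 2, the lowest, through days 14, 1 and 7 to day 4. No gap between neighbors, the largest being 0.09 between days 14 and 1, was above the larger of their SDs. For SCD the order was day 14, 7, 2, 4 and 1 from the lowest. The gap between day 14 and day 7, of 1.56, was above the larger SD of 0.62 and the tumors did not overlap, while the tumors of the other neighboring days did. The day means of SCD spanned 2.66 and those of ELOVL5 0.25.

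The 2 ELOVL5 probes ran close to each other. Both had been selected by the study for change on these arrays, so part of their likeness can come from that choice. An ELOVL5 probe without change would carry no name here. The test below asks only for a mean difference between the probes, and a high p does not show that they are equal. This difference, probe 138518_A minus probe 271284_A, averaged 0.01 ± 0.12 (SD, n = 12 mice; exact permutation test of signs, two-sided, p = 0.781). The probes were within 0.1 of each other in 10 of 16 tumors, and the largest difference was 0.23, in 924L. Over the 16 tumors their ratios correlated with an r of 0.733 and a rho of 0.824, given as a description since both probes share every array. Below the pool were 28 of 31 arrays on probe 138518_A and 30 of 31 on probe 271284_A. For SCD, which has a single probe, 18 of 31 arrays were below the pool.

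Each day was also fitted over all probes in limma, with 1 mean per day, the mouse as a random block and Benjamini-Hochberg adjustment, and a probe was called at an adjusted p under 0.05. Of the 9912 probes, 3.54% were called lower than the pool on day 1, 0.646% on day 2, 0.615% on day 4, 0.484% on day 7 and 2.91% on day 14. In either direction the shares were 6.54%, 0.787%, 0.928%, 0.706% and 6.19%. Both ELOVL5 probes were called lower on all 5 days, as 12 probes were (0.121%). The SCD probe was called lower at day 14 and was not called on another day. The members were chosen on this contrast, so nothing is read from these counts. The number of probes called in either direction moved with single tumors. With 1 tumor left out it ran from 125 (without 933L) to 991 on day 1, against 648 with all. It ran from 15 (without 920R) to 137 on day 4, against 92, and from 14 (without 908L) to 116 on day 7, against 70. On days 2 and 14, with 78 and 614 probes called, leaving out a tumor leaves only 1, so a change of count there cannot be laid to that tumor. With 1 of the day 14 tumors left out, SCD was not called there (adjusted p in limma of 0.471 without 919L and 0.195 without 938L), and on the dye-swap arrays alone neither ELOVL5 probe was called on any day, with adjusted p in limma between 0.103 and 0.709 and 7 of the 10 values of probe and day under 0.05 unadjusted.

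The ratios of tumors of 1 day were spread more widely for the desaturase than for the elongase. Such a spread holds differences between arrays as well as between tumors. The 2 arrays of a tumor differed in SCD ratio by 1.32 ± 0.91 on average (SD, n = 11 mice), as given below. Over 31 arrays the SCD signal had an SD of 1.05 in the pool channel, the same RNA throughout, and 1.29 in the tumor channel. The part of the arrays in the SCD spread was not tested. Pooled over days, the SD of SCD between tumors of 1 day was 0.95 and that of ELOVL5 0.14, a ratio of 6.92, against a median of 0.22 over all probes. Only 4 of the 9912 probes had a larger SD than SCD, while 8717 had a larger one than ELOVL5. Without tumor 920R the SDs were 0.48 and 0.11, a ratio of 4.41, and 138 probes were above SCD. These spreads belong to the same ratios from which the study chose its genes, and they are not tested.

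Tumors that shared a mouse differed in SCD by a median of 0.25 (0.07 to 2.85, 4 pairs), and tumors of different mice of 1 day by a median of 0.72 (0.01 to 3.57, 16 pairs). The largest difference within a mouse was that between 920R and 920L, and the other 3 pairs differed by 0.07 to 0.39. For ELOVL5 the medians were 0.13 (0.11 to 0.34) within a mouse and 0.14 (0.03 to 0.43) between mice. The pairs share tumors and were not tested.

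No relation of SCD and ELOVL5 ratios was detected across 12 mice. With 1 mean per mouse, Pearson's r was 0.0726 (p = 0.824) and Spearman's rho 0.042 (p = 0.905; permutation tests, two-sided). Without the 2 mice farthest from the ELOVL5 median r was -0.0764 (permutation p = 0.834). Taken as deviations from the day mean, r was -0.529 (permutation p = 0.0763) and rho -0.545 (permutation p = 0.071), neither past 0.05. Within single days there were too few mice for a value.

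The SCD ratio depended on which dye marked the tumor. Of the 15 tumors with both arrays, the forward array gave the higher SCD ratio in 15, by 1.32 ± 0.91 on average (SD, n = 11 mice; exact permutation test of signs, two-sided, p = 0.000977, the smallest it can give, adjusted over the 3 probes 0.00195). The size of that difference was larger than in 99.6% of all probes, whose median was 0.25. It ranged from 0.06 in 938L to 3.29 in 920R, so it was no constant offset. ELOVL5 leaned the other way, with the forward ratio lower by 0.37 ± 0.20 on probe 138518_A in 14 of 15 tumors and by 0.40 ± 0.25 on probe 271284_A in 13 of 15 (SD, n = 11 mice; exact permutation p = 0.00195 for each, also when adjusted), sizes above 71.2% and 74.9% of probes.

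**Figure D2:**
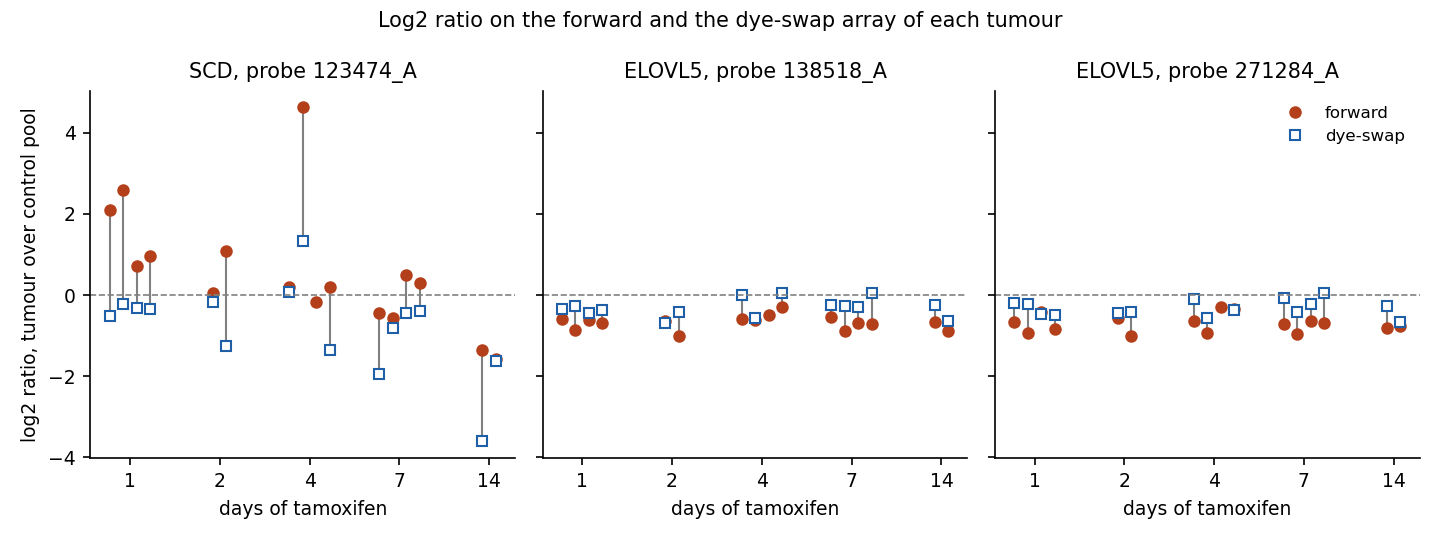
Log2 ratio of tumor over control pool (y axis) on the forward array (filled circles) and the dye-swap array (open squares) of each tumor, by days of tamoxifen (x axis), with a line joining the arrays of a tumor. In SCD the circle stands above the square in all 15 tumors with both arrays, and in ELOVL5 it mostly stands below.

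At day 1, the forward arrays put SCD at 2.11, 2.58, 0.71 and 0.97 and the dye-swap arrays at -0.52, -0.22, -0.33 and -0.35, so all 4 forward ratios were above the pool and all 4 dye-swap ratios below it. The day 1 mean was 1.59 ± 0.89 on forward arrays and -0.35 ± 0.13 on dye swaps (SD, n = 4 each), and whether SCD was above the pool at day 1 is therefore not settled. At day 2 the arrays of 986 gave 1.09 forward and -1.25 on the swap, and those of 932L 0.04 and -0.18, so the small SD of that day is one of averages. At day 14 the arrays gave -1.35 forward and -3.60 on the swap for 919L and -1.57 and -1.63 for 938L. The fall of SCD at day 14 was thus seen in each of 4 arrays and in both orientations.

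In spite of the offset, SCD forward and dye-swap ratios moved together over the 15 tumors, with an r of 0.738 and a rho of 0.557 (r = 0.608 without 920R). For the ELOVL5 probes the r was 0.392 and 0.136. These correlations are descriptions over tumors that in part share a mouse. ELOVL5 varied little between tumors, and its ranking of tumors on forward arrays was not that on dye swaps.

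Since the pool is the same RNA on every array, its channel shows how far the SCD signal moved with no change of sample. The SD of the pool signal over 31 arrays was 1.05 on the log2 scale for SCD, larger than in 95.8% of probes, against 0.44 and 0.35 for the ELOVL5 probes and a median of 0.41 over all probes. The pool signal of SCD averaged 11.41 on the arrays of day 7 and 9.88, 10.11, 9.76 and 10.18 on those of days 1, 2, 4 and 14. On the day 7 arrays it was thus higher than on the others. The tumor signal also had its highest day mean there, at 10.94, so the SCD spot was bright in both channels at day 7. The tumor signal of SCD averaged 8.14 at day 14 (7.74 to 8.78, 4 arrays) and between 10.03 and 10.94 on the other days, so the day 14 fall stood in the tumor channel. A signal near background limits how large a fall can be read, and the tumor signal at day 14 was between 2.75 and 3.87 times background. The part of the pool channel in the spread of SCD was not tested.

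**Figure D3:**
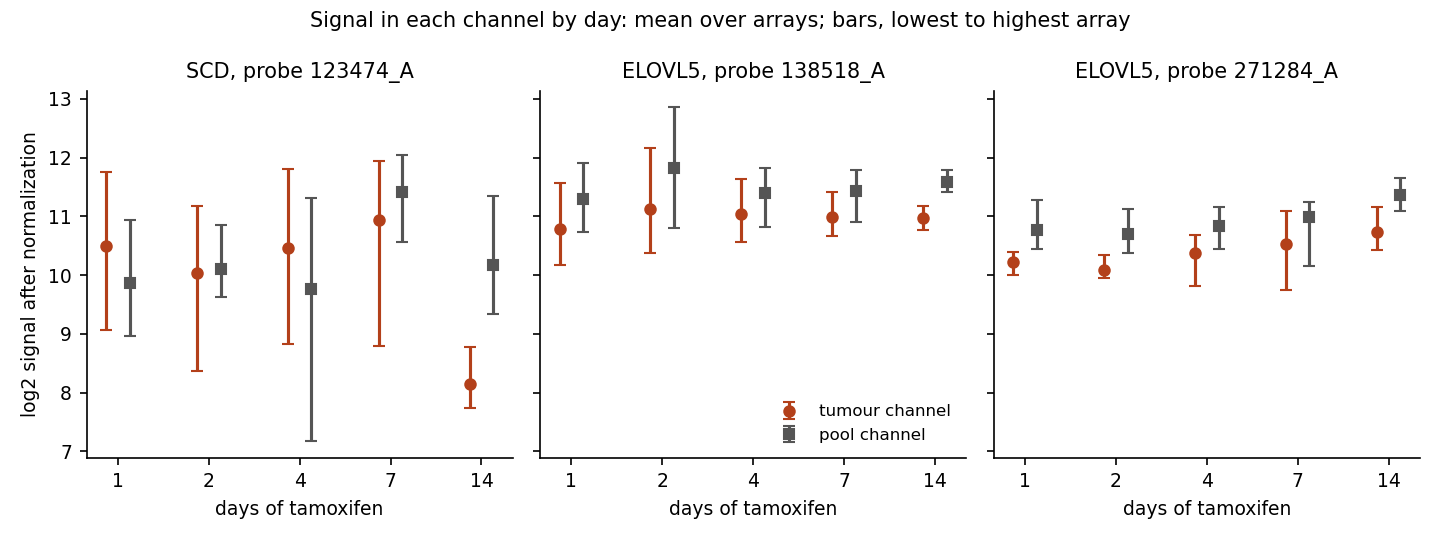
Log2 signal after normalization (y axis) in the tumor channel (circles) and the pool channel (squares) by days of tamoxifen (x axis). Points are means over the arrays of a day and bars run from the lowest to the highest array. The SCD pool channel runs between 7.18 and 12.05, and the SCD tumor channel at day 14 stays at or below 8.78.

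Other genes of lipid metabolism could be read only where a probe is named, and a name exists here only for genes the study selected for change, so their counts are no independent evidence of a direction. Of 99 genes other than the members in lists of fatty acid synthesis, cholesterol synthesis and lipid handling, 12 had a named probe. FASN, ACACA and the SREBF genes, which are central to these pathways, were not among them. At day 14 limma called 8 of the 12 lower and 3 higher, while 2.91% of all probes were called lower and 3.29% higher. The median log2 ratio was -0.64 over the 12 against 0.00 over all probes. Day 1 had 4 called lower and 1 higher, day 2 had 1 called lower and day 7 had 1 called higher. None was called at day 4. At an unadjusted p under 0.05 in limma, 5 were lower on each of days 1, 2, 4 and 7, with 2 higher on day 2 and 3 on the others, while over all probes the share lower was 11%, 7.47%, 8.01% and 5.79% and the share higher 10.5%, 6.73%, 7.96% and 5.62%. The calls at day 1 rest on single tumors, with 0 lower and 0 higher without 933L, 1 and 0 without 933R, 2 and 0 without 984L, and 0 and 0 with 1 mean per mouse. The call at day 2 was lost without 932L and the call at day 7 in 9 of the 16 fits that left out a tumor. Without 1 of the day 14 tumors, the calls over all days numbered 9 (without 919L) or 8 (without 938L), against 18 with both.

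Of the genes that serve fatty acid synthesis, ME1, cytosolic malic enzyme, a source of NADPH, was called lower at day 1 (-0.32 ± 0.11, SD, n = 4) and day 14 (-0.77 ± 0.17, SD, n = 2). CYB5, cytochrome b5, the electron carrier that hands electrons to SCD and other desaturases, was called lower at day 14 (-0.59 ± 0.10, SD, n = 2) and had means between -0.32 and -0.20 at the earlier days, on which it was not called. All 5 named genes of the fatty acid synthesis list, members included, were called lower at day 14, against 2.91% of all probes. These calls rest on 2 tumors and on genes that the study selected for change, so nothing is read from their number.

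**Figure D4:**
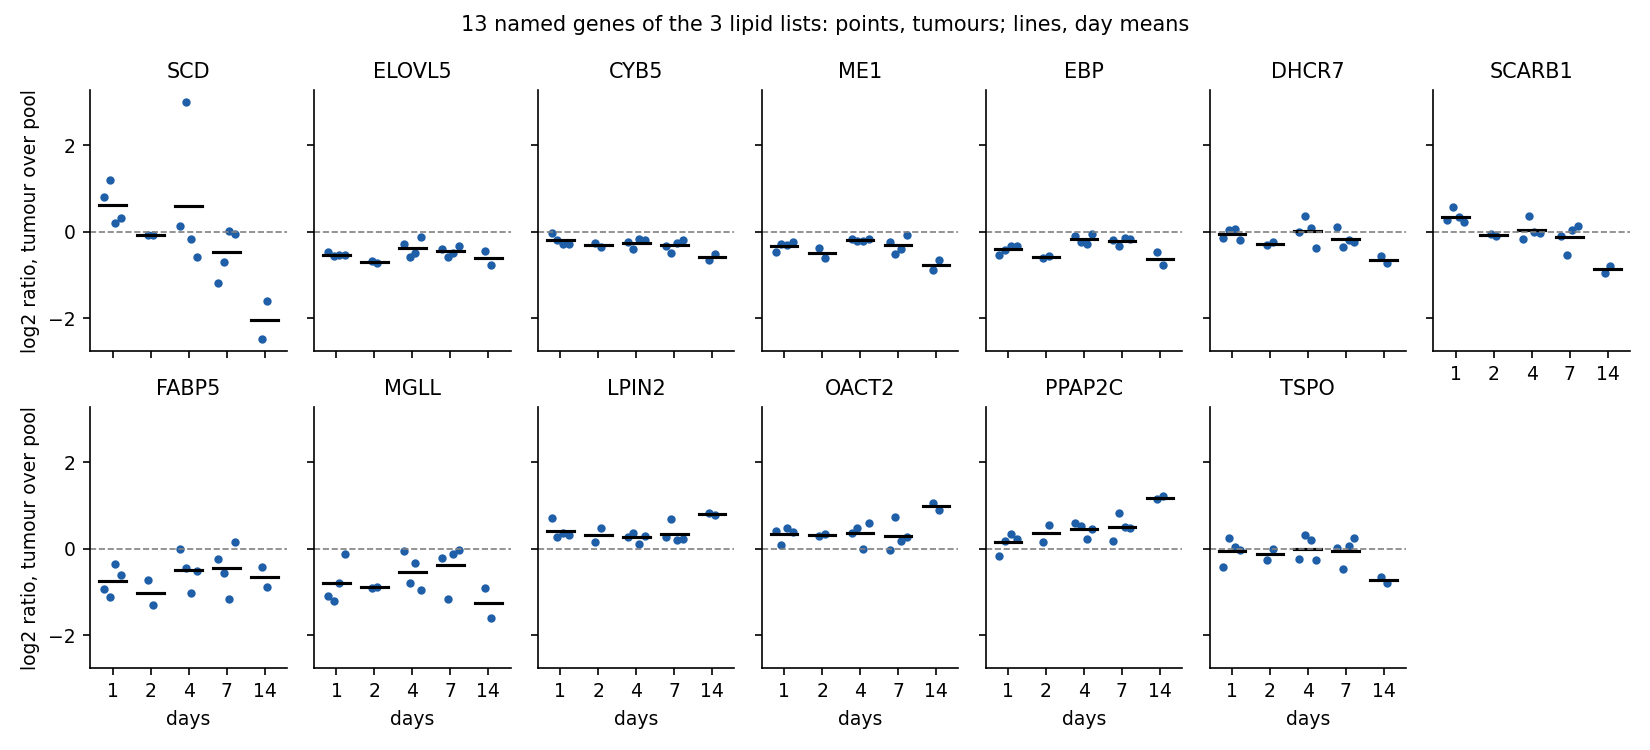
Log2 ratio of tumor over control pool (y axis) by days of tamoxifen (x axis) for 13 named genes of the lipid lists, members included, with 1 probe a gene. Points are tumors and black lines day means. At day 14 SCD has the lowest mean, -2.04, and LPIN2, OACT2 and PPAP2C are the genes above the pool.

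Of the cholesterol synthesis enzymes, EBP, a sterol isomerase, ran below the pool on all days, at -0.40 ± 0.10, -0.58 ± 0.03, -0.17 ± 0.11, -0.20 ± 0.08 and -0.62 ± 0.21 in day order (SD, n = 4, 2, 4, 4 and 2), and was called at days 1, 2 and 14 (its dimmer probe at days 1 and 14). DHCR7, which catalyzes the last step to cholesterol, was called lower at day 14 on both its probes (-0.64 ± 0.12 on 361378_A and -0.98 ± 0.56 on 43848_A, SD, n = 2). At day 1 only probe 43848_A was called (-0.54 ± 0.33, against -0.06 ± 0.12 on the other, SD, n = 4), so the probes disagree there.

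Of the genes of lipid uptake, storage and breakdown, SCARB1, the receptor for high-density lipoprotein, had 0.35 ± 0.15 at day 1 (SD, n = 4, not called) and -0.87 ± 0.12 at day 14 (SD, n = 2, called lower). TSPO, a mitochondrial protein that binds cholesterol, was called lower at day 14 (-0.72 ± 0.09, SD, n = 2). MGLL, monoglyceride lipase, was called lower at day 1 (-0.80 ± 0.49, SD, n = 4) and day 14 (-1.25 ± 0.48, SD, n = 2), and FABP5, a fatty acid-binding protein, at day 1 alone (-0.75 ± 0.34, SD, n = 4). The genes called higher were LPIN2, a phosphatidate phosphatase, at days 1 and 14 (0.79 ± 0.03 at day 14, SD, n = 2), PPAP2C, a lipid phosphate phosphatase, at days 7 and 14 (1.18 ± 0.06), and OACT2, a lysophospholipid acyltransferase, at day 14 (0.98 ± 0.11).

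Likeness of profile was measured as Pearson's r of log2 ratios over the 16 tumors among 252 other named genes. The genes most like SCD included AZIN1, the antizyme inhibitor, which favors polyamine synthesis (r = 0.935), and TMPO, a nuclear lamina protein (0.883). Also among them were SHOC2, a scaffold of RAS signaling (0.838), and NUMA1, a spindle pole protein (0.835). Without tumor 920R the r of these 4 were between 0.720 and 0.900. Of the lipid genes outside these, SCARB1 had an r with SCD of 0.824 (0.906 without 920R) and TSPO of 0.668. DHCR7 had an r of 0.740 on probe 361378_A but of 0.323 on probe 43848_A. ME1 had 0.540 and CYB5 0.480 (0.827 without 920R), while EBP, MGLL and FABP5 lay between -0.0984 and 0.205. The genes above the pool at day 14 ran the other way, with an r of -0.393 for LPIN2, -0.418 for OACT2 and -0.521 for PPAP2C (-0.755 without 920R). The least like were NEDD4L, a ubiquitin ligase (-0.897), SMAD1, a transducer of bone morphogenetic protein signals (-0.801), and NCOA1, a coactivator of steroid receptors (-0.779). Without 920R the r of NEDD4L, SMAD1 and NCOA1 were -0.866, -0.665 and -0.643. Their rho over all tumors were -0.812, -0.541 and -0.412. The most and least alike genes were chosen for their r, over tumors that share arrays and the pool. Moreover, 3 other probes had an r with SCD above that of AZIN1.

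The day means of these genes spanned less than those of SCD. AZIN1 had day means of 0.12, 0.18, 0.11, -0.22 and -0.69, from day 1 to day 14, and SHOC2 had 0.24, -0.25, 0.02, 0.01 and -1.02. NEDD4L, which ran the other way, had 0.06, 0.17, -0.02, 0.18 and 0.92.

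ELOVL5 was most like HPRT1, an enzyme of purine salvage (r = 0.830), SLC30A1, a zinc exporter (0.736), EBP (0.736), OLFM1, a secreted glycoprotein (0.694), and CELSR2, a cadherin (0.688), with r between 0.657 and 0.815 without 920R. SLC30A1 had day means of -0.66, -0.67, -0.52, -0.44 and -0.81, from day 1 to day 14, and so lay below the pool throughout, as ELOVL5 did. The least like were SELENBP1, a selenium-binding protein (-0.649), PPOX, an enzyme of heme synthesis (-0.647), and TFAP2B, a transcription factor (-0.619), which had means above the pool on all days. Because ELOVL5 varied little between tumors, these r rest on small differences between tumors.

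Markers of other cells could be read in part, since a name exists only for genes the study selected for change. The counts of calls below are therefore no independent evidence of a direction. Over all probes, 2.91% were called lower and 3.29% higher at day 14. Fat cells, which carry much SCD, had 1 named marker of 14, C20orf3, which was called higher at day 14 (0.98, n = 2). The defining fat cell markers carry no named probe here, so a share of mouse or stromal fat in the SCD values was not tested. Of 17 fibroblast and matrix genes, 3 were named (FN1, MGP and LGALS1) and all 3 were called lower at day 14 (FN1 on the brighter of its 2 probes alone, with an adjusted p in limma of 0.0416 against 0.0579), with a median of -0.67 and tumor medians between -0.93 and -0.46, against -0.45 to 0.21 in the tumors of the earlier days. Endothelial and macrophage lists had no named gene, and the erythroid list had HBG1, which was called on no day. The luminal epithelial list, of the tumor's own type, had 6 named genes of 16, of which 2 were called lower at day 14 (TFF1 and TFF3) and 3 higher (CD24, MUC1 and ERBB3). The hypoxia list had 6 of 18 named, 2 of them called lower at day 14. In such bulk tumors, fewer cells of a type, less RNA per cell and a change in the tumor cells themselves cannot be told apart.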

How the data were processed

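RNA of 16 treated tumors and of the control pool was measured on 2-color cDNA arrays. The intensity values deposited are spot and local background brightness per channel, taken by the authors on a laser scanner with no correction or normalization. A table by the authors holds log2 ratios per array, made with limma (version not given in the sources used here). It served as an alternative. Here spots with the mark 0 (1 to 393 an array, none of a member) were left out, then normexp with an offset of 50, loess within and quantile between arrays were run in limma 3.58.1 (R 4.3.3, statmod 1.5.0). Quantile normalization fixes the range of each array, which can shrink differences. Each adjusted p of a probe is limma's, with the mouse as a random block (estimated correlation 0.0223). The pool is 1 sample, so tests leave out its spread. Precision is limited by the number of mice, 2 on days 1, 2 and 14 and 3 on days 4 and 7. The 2 arrays of a tumor are repeats of the same RNA.

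Members and lists were chosen with earlier results of these data known. Genes named are the members, every lipid list gene with a named probe, and for each member the 5 most and 3 least alike genes by r, the probe with the highest mean intensity standing for a gene. Results of 1 gene among these are not reported here. Markers named beside these were chosen after their values were seen. Alternatives covered background, normalization, spot marks, dye orientation and a dye term (added after seeing the data), the left-out array, blocks, dim probes, the samples in the fit and each tumor left out.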

Additional observations from a re-analysis of the deposited data

Results flagged for a closer look

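Among SCD, ELOVL5 and the lipid genes, a tumor far from the others of its day was sought in 48 groups of 4 tumors, of which 2 held one, and chance gives about 1 in 20. ELOVL5 probe 271284_A had a log2 ratio of -0.75 in tumor 920R at day 4, against -0.37, -0.35 and -0.30 in the others of that day. LPIN2 had 0.69 in tumor 908L at day 7, against 0.21, 0.22 and 0.27. The SCD ratio of 920R, at 2.99, stood apart by less of the day's range than these.

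Over 160 comparisons of a pair of days, 4 had every tumor of a day above the pool and every tumor of the other day below it. SCD averaged -0.08 at day 2 and -2.04 at day 14, with all tumors below, against 0.62 at day 1, with all tumors above. SCARB1 averaged -0.07 at day 2 and -0.87 at day 14, against 0.35 at day 1. These differences between days were not tested, and for SCD the day 1 ratios were above the pool on forward arrays alone.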

How the results depend on the processing

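Direction held at every alternative for ELOVL5 on all days and for SCD at day 14, whose log2 ratio ran from -2.62 to -1.46 over 11 alternatives and from -2.48 to -1.60 with each tumor left out. On forward arrays alone SCD was 1.59 at day 1 and 0.56 at day 2, and ELOVL5 was -0.71 at day 1, -0.81 at day 2 and -0.73 at day 7. On dye-swap arrays alone SCD was -0.35 at day 1 and -0.71 at day 2, and ELOVL5 was -0.35, -0.50 and -0.18 on those 3 days. SCD at day 2 was -0.054 with plain background subtraction, -0.0335 with none, -0.13 with no normalization between arrays and -0.18 in the authors' table. The ratio of the SDs of SCD and ELOVL5 ran from 4.41 (without 920R) to 7.75 with a tumor left out. Probes called on at least 1 day numbered 1124, against 1832 in the authors' table, 2774 on forward arrays, 704 with 1 mean per mouse, 1864 with each day fitted alone and 623 to 1477 with a tumor left out. By day, leaving out a tumor gave 125 (without 933L) to 991 (without 915L) probes at day 1, against 648 with all, 6 (932L) to 311 (986) at day 2, against 78, 15 (920R) to 137 (984R) at day 4, against 92, 14 (908L or 946R) to 116 (915L) at day 7, against 70, and 31 (938L) to 717 (920R) at day 14, against 614. Without 919L, the probes called at day 14 numbered 168. Calls of the 12 lipid genes over all days numbered 18, and 8 to 21 with a tumor left out. The SCD call at day 14 was lost in 4 settings, without either day 14 tumor, with the left-out array used as labelled and on forward arrays alone. ELOVL5 calls numbered 10 of 10 probes and days, 5 with that array used, 4 with 1 mean per mouse or with each day alone, 6 without 933R and 0 on dye swaps (7 at an unadjusted p under 0.05 in limma). The causes were not tested. The replicate block gave 1182 probes. Deviations from the day mean had a mean r of 0.0108 in tumors that share a replicate number (24 pairs, 5 above 0.1). In tumors with different numbers the mean r was -0.00346 (76 pairs, 14 above 0.1). Whether tumors with the same number shared any handling was not tested. Signal near background limits the reading of SCD at day 14.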
